A study of Homo sapiens with 14 samples.

Results

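The gene set described here holds 39 androgen-responsive genes other than the kallikreins, followed through 4 ways of disturbing the transcription factor FOXA1 in the human prostate carcinoma line 22Rv1. The members are a list of named genes, and the rule that defines them uses no measured value, although the list was drawn up with earlier results of these data known. All 39 were found in each count table, out of 57904 features in the hairpin table, 57905 in each degradation table and 20243 in the R219S table. A member was counted in a comparison where its mean level over the libraries was at least 1 CPM, the usual unit of counts scaled to library size, which held for 33 members with the hairpin, 36 at 1 h, 35 at 24 h and 36 in R219S. TRPM8, a cold-sensing cation channel, and OPRK1, an opioid receptor, stayed below that level in all 4, and neither reached 0.2 CPM in any library.

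Androgens are steroid hormones that change the transcription of their target genes in the secretory epithelium of the prostate. FOXA1 is a forkhead protein that can bind closed chromatin and is known to open enhancers of hormone-responsive genes in luminal prostate cells. Among the genes below are feedback components of steroid hormone signalling, such as FKBP5, secretory products such as TMPRSS2 and prostatic acid phosphatase, and enzymes and transporters of the secretory epithelium.

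RNA sequencing covered 14 libraries in 7 groups of 2. The hairpin experiment compared cells given a control lentivirus (shCtrl) with cells given a FOXA1 knockdown lentivirus (shFOXA1), labelled WT and "WT, FOXA1 knockdown". The degradation experiment used cells carrying FOXA1_dTAG, a FOXA1 fusion whose protein is destroyed when a small molecule is added, at 0 h, 1 h and 24 h. The last experiment compared cells labelled WT with cells labelled R219S, a substitution in the forkhead domain, and both carry FOXA1_dTAG. The genotype label of the R219S cells reads R219 mutation. All cells were grown in medium with 10% fetal bovine serum, and no androgen treatment is named. Per the labels, the degradation, WT and R219S cells received either dTAG or DMSO, without saying which library received which, so a vehicle control at 24 h could not be identified in the labels and whether the WT and R219S cells were exposed to the degrader is not stated. Whether the lines were single clones is not stated either. Titles of the shCtrl libraries read 22Rv2, while their cell line label reads 22Rv1. Nothing states that the 2 libraries of a group came from separate cultures, so the p-values measure the spread between these libraries only, which may be technical.

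Library totals ran from 21560090 to 38465155 counts. FOXA1 mRNA was 402 and 435 CPM in shCtrl and 299 and 305 CPM in shFOXA1, a log2 fold change of -0.47 ± 0.062 (SE, adjusted p = 0.000275). FOXA1 mRNA did not pass the test at 1 h (-0.0057 ± 0.033, adjusted p = 0.941), rose by 0.23 ± 0.039 at 24 h (adjusted p = 7.6e-06) and fell by 0.57 ± 0.036 in R219S, from 1019 and 1032 to 703 and 681 CPM (adjusted p = 1.28e-45). Degradation acts on protein, so these mRNA values do not measure loss of the fusion. The 11 luminal prostate markers were each above 1 CPM in every table. Endothelial and leukocyte markers summed to at most 5.97 CPM in any library. Of 9 basal markers, 5 were at 1 CPM or more with the hairpin, 4 at 1 h, 4 at 24 h and 5 in R219S, while KRT17 was at 0 in all 14. Of 10 neuroendocrine markers, 6 were at that level with the hairpin and 5 in each of the other comparisons. Fibroblast markers summed to 216 to 225 CPM in WT and 509 to 521 CPM in R219S, with COL3A1 higher by log2 5.41, DCN by 0.89 and LUM by 0.13, COL1A1 lower (-0.89), and COL1A2 and THY1 at 0 in all 4 libraries. The part of these markers in the R219S results was not tested. In bulk RNA, fewer expressing cells and less RNA per cell cannot be told apart.

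The promoters of the members were searched for steroid receptor and forkhead motifs. RefSeq promoters (GRCh38.p14, 250 bases before a start site and 50 from it on) matched 30 of the 39 genes by symbol, with 64 promoters. Motifs were searched on both strands. The forkhead heptamer TGTTTAC occurred in 1 of the 64 member promoters (1.56%) and in 3.42% of all 35116 promoters. The hexamer TGTTCT, which is one arm of the palindromic site of steroid receptors, occurred in 8 of the 64 (12.5%) and in 14.8% of all promoters. The complete site, AGAACA and TGTTCT with any 3 bases between them, contains that hexamer on both strands and occurred in 0 member promoters and in 1 of all. The counts were made on hg19 per the submitters' processing notes, so these windows locate the genes on another build and carry no measurement of binding. The 4 promoters shown belong to members that passed the test in several comparisons and that hold a hexamer match. Capitals mark TGTTCT or its reverse complement AGAACA, and in LIFR also GTAAACA, the reverse complement of the heptamer.
FKBP5, chr6:35728534-35728833, minus strand: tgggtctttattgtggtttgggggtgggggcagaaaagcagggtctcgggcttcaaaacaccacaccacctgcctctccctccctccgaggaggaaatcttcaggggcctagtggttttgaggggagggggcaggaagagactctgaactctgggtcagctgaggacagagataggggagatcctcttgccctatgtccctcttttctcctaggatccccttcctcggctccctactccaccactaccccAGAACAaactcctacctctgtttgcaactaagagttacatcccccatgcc
PMEPA1, chr20:57711423-57711722, minus strand: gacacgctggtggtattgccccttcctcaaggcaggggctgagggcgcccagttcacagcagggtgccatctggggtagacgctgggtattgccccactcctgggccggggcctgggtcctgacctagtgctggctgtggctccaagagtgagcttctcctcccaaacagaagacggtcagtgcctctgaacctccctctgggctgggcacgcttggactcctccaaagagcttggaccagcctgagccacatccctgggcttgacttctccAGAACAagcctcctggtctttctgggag
NEDD4L, chr18:58046976-58047275, plus strand: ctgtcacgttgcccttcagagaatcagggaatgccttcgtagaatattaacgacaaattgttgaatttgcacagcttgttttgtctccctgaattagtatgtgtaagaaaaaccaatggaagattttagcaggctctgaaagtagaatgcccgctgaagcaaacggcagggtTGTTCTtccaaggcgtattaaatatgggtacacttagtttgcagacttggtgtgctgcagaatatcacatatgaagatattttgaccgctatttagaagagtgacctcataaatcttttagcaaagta
LIFR, chr5:38557418-38557717, minus strand: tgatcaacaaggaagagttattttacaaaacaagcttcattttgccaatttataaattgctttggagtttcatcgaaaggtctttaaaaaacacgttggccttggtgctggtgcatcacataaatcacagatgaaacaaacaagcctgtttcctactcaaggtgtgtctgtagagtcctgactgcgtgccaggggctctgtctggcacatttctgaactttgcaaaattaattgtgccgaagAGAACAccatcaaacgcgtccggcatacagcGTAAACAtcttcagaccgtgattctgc
The hexamer also matched in promoters of IQGAP2, STK39 and TRPM8 and in another PMEPA1 promoter, and LIFR was the member with the heptamer. A match is a run of letters and not a measured site.

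In the shCtrl, 0 h and WT groups, with which the others were compared, several members stood at very different levels. Whether the WT cells had been exposed to the degrader is not stated. FOXA1 mRNA itself averaged 422 CPM in shCtrl, 168 CPM at 0 h and 1031 CPM in WT. These levels are CPM of the library total from separately counted tables, and they were not tested against each other. EAF2, a partner of the elongation factor ELL2, averaged 0.918 CPM in shCtrl, 30.1 CPM at 0 h and 3.53 CPM in WT. INPP4B, a lipid phosphatase, averaged 6.85, 58.8 and 66.9 CPM in the same order, and LIFR, the receptor for leukaemia inhibitory factor, 3.18, 24.5 and 89.7 CPM. FKBP5 averaged 309 CPM in shCtrl, 890 CPM at 0 h and 1511 CPM in WT. PLPP1, a lipid phosphate phosphatase, was highest at 0 h, at 248 CPM, and stood at 66.7 CPM in shCtrl and 20.7 CPM in WT. ZBTB10, a zinc finger repressor, and CHRNA2, a nicotinic receptor subunit, lay close together in all 3 groups in the plot of these levels.

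**Figure D1:**
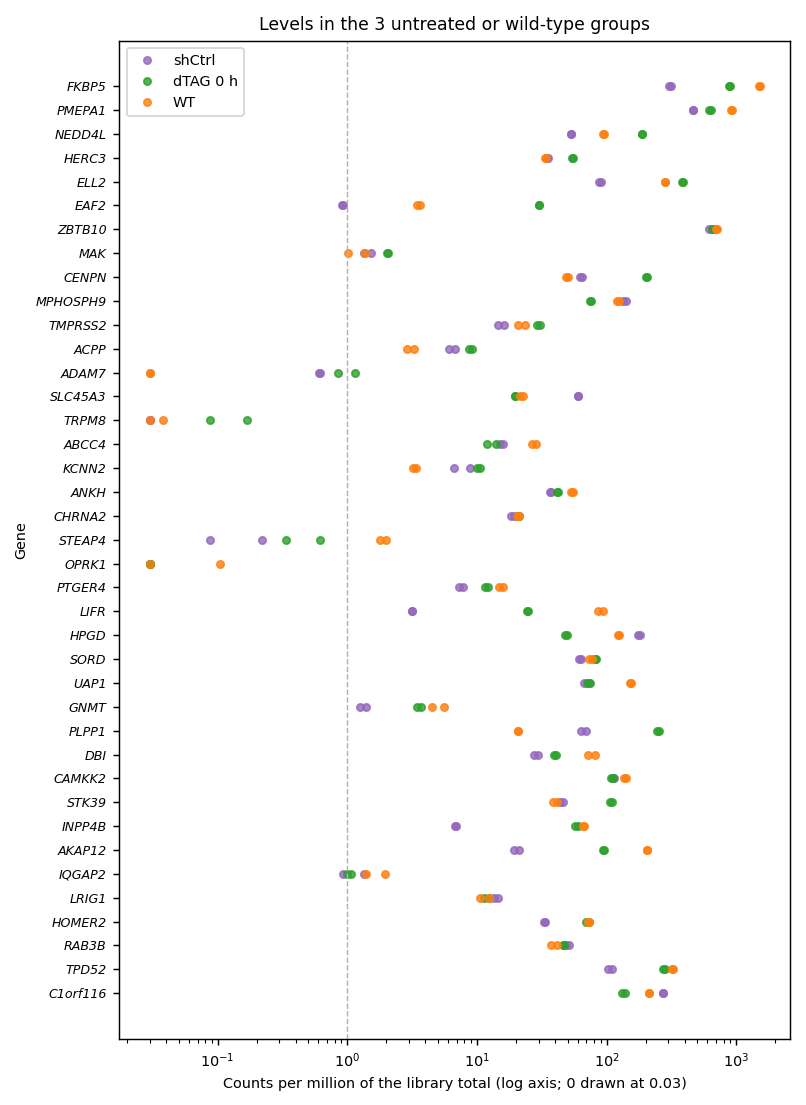
Levels of the 39 genes in the shCtrl, 0 h and WT groups, as CPM of the library total on a log axis. Each point is 1 library (2 per group), a value of 0 is drawn at 0.03 and the dashed line marks 1 CPM. EAF2, INPP4B, LIFR and FKBP5 differ widely between the tables, while CHRNA2 and ZBTB10 do not.

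In the hairpin comparison, which asked what changed when FOXA1 mRNA was reduced, 8 members rose, 2 fell and 23 did not pass the test among the 33 at or above 1 CPM. The members that rose were led by FKBP5, the co-chaperone that returns steroid receptors to a low-affinity state, and by ELL2, an elongation factor for RNA polymerase II. Calls used edgeR's quasi-likelihood test over all features, with p-values adjusted by Benjamini and Hochberg's method and a threshold of 0.05. Of the 15311 features tested at that level, 28% were called, 13.3% higher and 14.7% lower, so the members' share of 30.3% lay near the background. The members' median log2 fold change was 0.097, against 0.0012 over all features.

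FKBP5 was 311 and 302 CPM in shCtrl and 740.5 and 941 CPM in shFOXA1, a rise of log2 1.46 ± 0.109 (adjusted p = 0.000168). PMEPA1, a membrane adaptor that restrains TGF-beta signalling, rose from 462 and 462 to 699.7 and 705 CPM (0.60 ± 0.057, adjusted p = 3.54e-05). NEDD4L, a ubiquitin ligase of ion channels and receptors, moved the other way, from 52.5 and 53.1 to 38.7 and 41.1 CPM (-0.40 ± 0.073, adjusted p = 0.00192). None of these 3 had overlapping groups. Here and below, such separation adds no support, since the tests used the same libraries and its share over all features was not counted. Among transcription and division genes, ELL2 rose from 86.9 and 89.4 to 146 and 197 CPM (0.96 ± 0.152, adjusted p = 0.013), and CENPN, a centromere protein, fell from 61.3 and 64.7 to 54.6 and 51.1 CPM (-0.25 ± 0.070, adjusted p = 0.0212). The shFOXA1 libraries stood apart from each other for ELL2, by more than the whole of its shCtrl spread.

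The other members that rose with the hairpin were 5 genes of diverse function. PTGER4, a prostaglandin E2 receptor, went from 7.68 and 7.18 to 10.1 and 16.9 CPM (0.86 ± 0.235, adjusted p = 0.0398). STK39, a kinase that regulates chloride cotransporters, went from 43.0 and 45.8 to 70.4 and 67.2 CPM (0.63 ± 0.070, adjusted p = 9.69e-05). RAB3B, a small GTPase of secretory vesicles, went from 51.2 and 48.4 to 67.9 and 62.8 CPM (0.39 ± 0.071, adjusted p = 0.00208). DBI, the acyl-CoA binding protein, and HOMER2, a scaffold of glutamate receptors and calcium channels, had smaller rises without overlap of the groups. DBI went from 29.3 and 27.6 to 36.9 and 37.3 CPM (0.38 ± 0.081, adjusted p = 0.00499). HOMER2 went from 32.9 and 32.9 to 39.4 and 44.3 CPM (0.34 ± 0.083, adjusted p = 0.0102). Some of these calls were lost in fits with a single control library. Calls over all features also went from 2156 higher and 2350 lower to 1141 and 1280 without shCtrl replicate 1, and to 860 and 853 without replicate 2. With shCtrl replicate 1 left out, ELL2, CENPN, PTGER4 and HOMER2 no longer passed (log2 0.94, -0.29, 0.91 and 0.34, adjusted p = 0.0545, 0.0786, 0.185 and 0.075). With shCtrl replicate 2 left out, these 4 (log2 0.98, -0.21, 0.81 and 0.34, adjusted p = 0.0613, 0.266, 0.268 and 0.0899) and DBI (0.34, adjusted p = 0.0983) no longer passed.

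Some members with wide hairpin differences did not pass the test, and in these the shFOXA1 libraries lay far apart. TMPRSS2, the androgen-driven membrane serine protease, was 16.1 and 14.4 CPM in shCtrl and 51.2 and 89.4 CPM in shFOXA1, a log2 fold change of 2.21 ± 0.396 (adjusted p = 0.066). SLC45A3, the membrane transporter known as prostein, was 59.96 and 60.2 CPM in shCtrl and 28.6 and 14.7 CPM in shFOXA1 (-1.47 ± 0.404, adjusted p = 0.133). HPGD, the enzyme that inactivates prostaglandins, was 173 and 179.9 CPM against 123 and 81.7 CPM (-0.78 ± 0.251, adjusted p = 0.151). The groups did not overlap for any of the 3, and the library furthest from the controls was shFOXA1 replicate 2 each time. Without shFOXA1 replicate 1 all 3 passed, with log2 fold changes of 2.56, -2.02 and -1.10 (adjusted p = 6.25e-227, 8.64e-110 and 5.28e-78), and without shFOXA1 replicate 2 they passed with 1.75, -1.07 and -0.51 (1.01e-83, 4.06e-40 and 7.25e-18). DESeq2 called all 3 (adjusted p = 9.26e-07, 0.0094 and 0.0385), and TMPRSS2 also passed when every feature had to reach 1 CPM (0.0466). In the fits without 1 library the remaining shFOXA1 library was assumed to vary like the shCtrl pair. C1orf116, also called SARG, was 269 and 272 CPM in shCtrl and 239 and 147 CPM in shFOXA1 (-0.49 ± 0.31, adjusted p = 0.401), and it passed without replicate 1 (-0.87, adjusted p = 1.92e-47) or replicate 2 (-0.18, adjusted p = 0.0104). CHRNA2 was 19.3 and 18.2 CPM in shCtrl and 23.7 and 14.4 CPM in shFOXA1, with the shFOXA1 libraries on either side of the controls. Its log2 value of 0.02 ± 0.253 (adjusted p = 0.96) became -0.38 without shFOXA1 replicate 1 (adjusted p = 0.00331) and 0.34 without replicate 2 (adjusted p = 0.00384).

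The spread behind these values was larger in shFOXA1 than in any other pair. Chi-square per degree of freedom between the libraries of a group was 11.8 in shFOXA1 and 2.04 to 4.04 in the other 6 groups. More members were called without either shFOXA1 library, and fewer without either shCtrl library. Calls over all features moved the same way in each of these fits. The remaining members had smaller values. MAK, a kinase, HERC3, a ubiquitin ligase, MPHOSPH9, a centriolar protein, ZBTB10, ACPP, ABCC4, KCNN2, ANKH, LIFR, SORD, UAP1, GNMT, PLPP1, CAMKK2, INPP4B, AKAP12, LRIG1 and TPD52 lay between -0.38 (ACPP) and 0.28 (LIFR). 6 members were below 1 CPM: EAF2, ADAM7, TRPM8, STEAP4, OPRK1 and IQGAP2.

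At 1 h of degradation, which asked for the earliest changes, 1 member stood out in size. PTGER4 was 12.2 and 11.5 CPM at 0 h and 5.48 and 5.81 CPM at 1 h, a fall of log2 1.07 ± 0.119 (adjusted p = 5.96e-12), so its level dropped to 0.476 of the start. It kept this call in every alternative fitted. In all, 10 members fell and 3 rose among 36, and the other 12 called changes lay between -0.24 and 0.26. The 23 members that did not pass lay between -0.35 (MAK) and 0.46 (ADAM7). Of 15524 features at 1 CPM or more, 24.1% were called, 13.1% higher and 10.9% lower, beside 36.1% of the members (8.33% higher, 27.8% lower). The members' median was -0.017, against 0.0050 over all features.

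C1orf116 fell from 139 and 131 to 118 and 111 CPM (-0.24 ± 0.037, adjusted p = 2.78e-07). Among transcription genes, EAF2 fell from 30.2 and 30.2 to 26.2 and 25.4 CPM (-0.23 ± 0.065, adjusted p = 0.00655), and ELL2 fell from 381 and 391 to 352 and 341 CPM (-0.15 ± 0.029, adjusted p = 2.03e-05). Both encode parts of the elongation machinery. MPHOSPH9 (76.4 and 74.8 to 69.6 and 69.3 CPM, -0.12 ± 0.044, adjusted p = 0.0347) and ZBTB10 (652 and 683 to 619 and 624 CPM, -0.10 ± 0.027, adjusted p = 0.00272) had shallower falls. The ligases HERC3 (55.2 and 54.6 to 48.3 and 49.2 CPM, -0.17 ± 0.050, adjusted p = 0.00707) and NEDD4L (189.8 and 188 to 175 and 178 CPM, -0.10 ± 0.033, adjusted p = 0.0208) were lower as well. SLC45A3 fell from 19.7 and 19.8 to 17.5 and 16.5 CPM (-0.21 ± 0.080, adjusted p = 0.0476) and INPP4B from 60.7 and 57.3 to 50.8 and 53.1 CPM (-0.18 ± 0.049, adjusted p = 0.00332). Groups overlapped for none of the 10, which adds no support to calls made from the same libraries.

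The 3 members that rose at 1 h were DBI (39.3 and 40.9 to 49.8 and 46.2 CPM, 0.26 ± 0.054, adjusted p = 0.000125), FKBP5 (899.6 and 884 to 963 and 967 CPM, 0.11 ± 0.025, adjusted p = 0.000311) and PLPP1 (245 and 253 to 268 and 267 CPM, 0.10 ± 0.030, adjusted p = 0.00902). FKBP5 and DBI had also risen with the hairpin. Base composition moved with the 1 h changes. Across 18705 features the log2 fold change and the GC content of transcripts had a Spearman correlation of 0.323. Such a value is a description over features, which are not independent. It was 0.137 with the hairpin, 0.170 at 24 h and -0.014 in R219S. The members' median GC content was 43.8% against 48.6% over all features. At 1 h, when GC content and length were corrected for, a setting added after seeing the data, 5 members were lower and 4 higher. Over the 19397 features fitted, that correction left 1526 higher and 1062 lower, against 2081 and 1769 without it. Those lower were PTGER4, C1orf116, SLC45A3, CHRNA2 (-0.23, adjusted p = 0.0327) and KCNN2 (-0.32, adjusted p = 0.0459), and HOMER2 joined those that rose (0.18, adjusted p = 0.00239). ELL2 (-0.06, adjusted p = 0.126), EAF2 (-0.17, 0.0661), HERC3 (-0.11, 0.154), INPP4B (-0.05, 0.539) and MPHOSPH9 (-0.025, 0.773) no longer passed, and NEDD4L (0.01, 0.833) and ZBTB10 (0.05, 0.205) changed sign.

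Small 1 h changes also depended on the tool and on single libraries. DESeq2 did not call NEDD4L (adjusted p = 0.0841), HERC3 (0.066), EAF2 (0.0668), MPHOSPH9 (0.154) or SLC45A3 (0.199). Without 1 h replicate 1 or without 1 h replicate 2, 4 members fell. NEDD4L (adjusted p = 0.314 and 0.157), HERC3 (0.124 and 0.0594), MPHOSPH9 (0.21 and 0.235), SLC45A3 (0.0847 and 0.309), ZBTB10 (0.142 and 0.0789) and PLPP1 (0.162 and 0.144) lost their calls without 1 h replicate 1 and replicate 2 in that order. EAF2 lost its call without 1 h replicate 2 (0.105), and INPP4B without 1 h replicate 1 (0.138). Leaving out 0 h replicate 1 ended the calls of MPHOSPH9 (0.124), INPP4B (0.0629) and SLC45A3 (0.11), and leaving out 0 h replicate 2 ended that of SLC45A3 (0.134). PTGER4, C1orf116, ELL2, FKBP5 and DBI kept theirs without any 1 library.

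**Figure D2:**
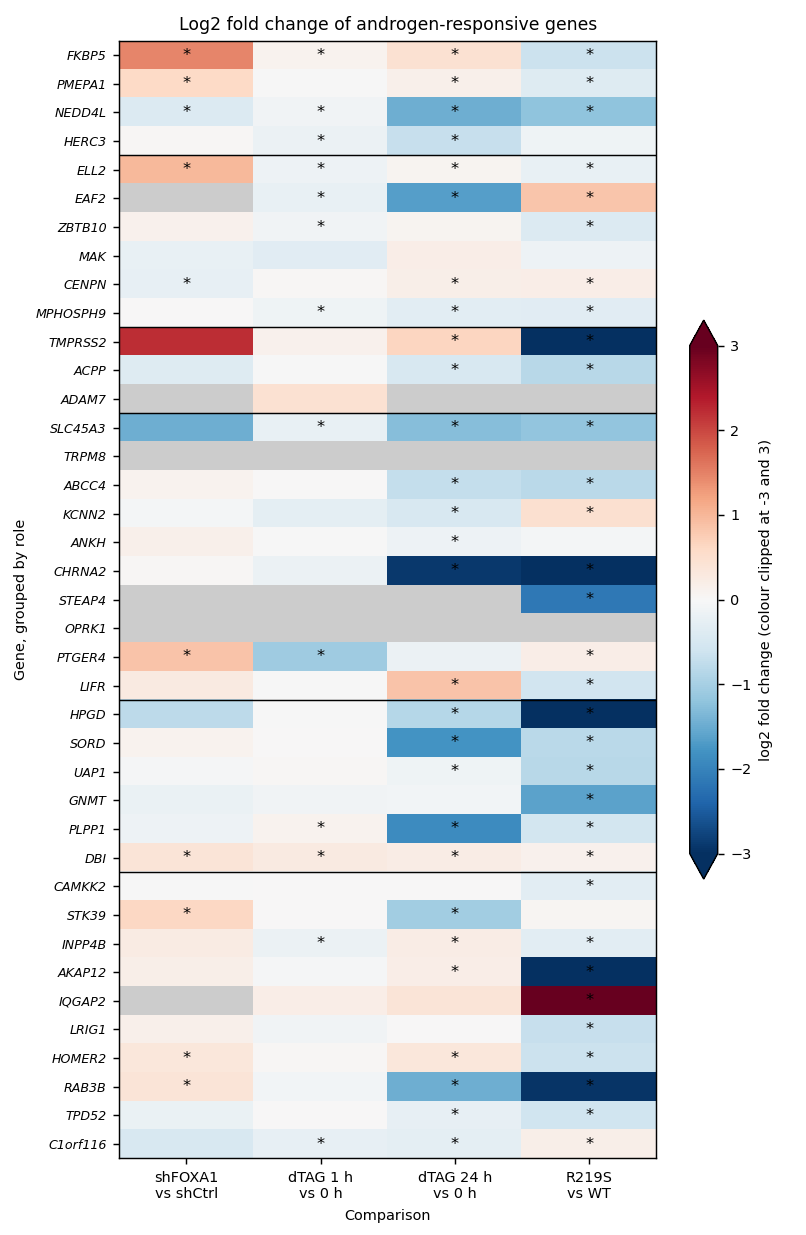
Log2 fold change of each gene (lines, grouped by role) in the 4 comparisons (columns), with colour clipped at -3 and 3. Stars mark members called at an adjusted p under 0.05, and grey cells are below 1 CPM. The hairpin and 1 h columns hold 10 and 13 stars, the 24 h and R219S columns 28 and 32.

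By 24 h of degradation, 18 members had fallen and 10 had risen among the 35 at or above 1 CPM, and 8 of the falls were at least 2-fold. The deepest were in the ion channel subunit CHRNA2, the lipid phosphatase PLPP1 and the sorbitol dehydrogenase SORD, while FKBP5, TMPRSS2 and LIFR went up. Over 15664 features, 55.2% were called, 25.8% higher and 29.3% lower, beside 80% of the members (28.6% higher, 51.4% lower). The members' median was -0.14, against -0.0022 over all features. Basal markers summed to 66.9 to 72.2 CPM at 0 h and 106 to 111 CPM at 24 h. Of the 9 in that list, 4 were at 1 CPM or more, with 2 called higher and 1 lower, and TP63 and KRT17 were at 0. Their part in these changes was not tested.

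Secretory and metabolic enzymes were mostly lower at 24 h. PLPP1 fell from 249 and 256 to 70.4 and 65.2 CPM (-1.90 ± 0.044, adjusted p = 1.4e-25). SORD, which oxidises sorbitol to fructose, fell from 82.0 and 83.9 to 24.2 and 23.6 CPM (-1.80 ± 0.056, adjusted p = 2.49e-22). HPGD fell from 48.3 and 50.1 to 26.9 and 27.5 CPM (-0.85 ± 0.061, adjusted p = 3.56e-13). In each of the 3 the 24 h libraries lay within a few CPM of each other and far below 0 h. ACPP, prostatic acid phosphatase, fell from 9.36 and 8.78 to 6.06 and 6.99 CPM (-0.47 ± 0.122, adjusted p = 0.00178). UAP1, which makes UDP-N-acetylglucosamine, fell by 0.14 ± 0.050 (71.4 and 76.4 to 69.4 and 65.0 CPM, adjusted p = 0.025). DBI rose (39.8 and 41.5 to 48.6 and 47.0 CPM, 0.23 ± 0.057, adjusted p = 0.000977), and the methyltransferase GNMT did not pass (3.49 and 3.75 against 3.39 and 3.48 CPM, -0.08 ± 0.172, adjusted p = 0.756). TMPRSS2 was the protease that rose, from 29.6 and 30.9 to 48.3 and 46.4 CPM (0.65 ± 0.061, adjusted p = 1.62e-10). ADAM7, an epididymal protein of the ADAM family, was below the 1 CPM level at 0.859 and 1.17 CPM at 0 h and 0.154 and 0.183 CPM at 24 h.

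Channels and transporters followed with 5 falls and 1 rise. CHRNA2 dropped from 21.3 and 21.2 to 3.11 and 2.63 CPM (-2.89 ± 0.116, adjusted p = 2.42e-19), the largest fold of any member at 24 h. SLC45A3 dropped from 19.9 and 20.04 to 7.73 and 8.79 CPM (-1.27 ± 0.096, adjusted p = 1.16e-12), and ABCC4, an exporter of cyclic nucleotides and prostaglandins, from 14.2 and 12.2 to 8.16 and 7.91 CPM (-0.72 ± 0.108, adjusted p = 1.54e-06). KCNN2, a calcium-activated potassium channel, fell by 0.47 ± 0.112 (10.7 and 10.2 to 7.82 and 7.33 CPM, adjusted p = 0.000789), and ANKH, a pyrophosphate and citrate exporter, by 0.14 ± 0.058 (42.3 and 43.0 to 38.8 and 38.5 CPM, adjusted p = 0.0441). LIFR, a cytokine receptor, rose from 24.7 and 25.2 to 44.7 and 45.6 CPM (0.86 ± 0.063, adjusted p = 6.67e-13), the largest rise of any member. PTGER4, lowered at 1 h, was back at 10.8 and 10.6 CPM against 12.4 and 11.7 CPM at 0 h (-0.17 ± 0.100, adjusted p = 0.165).

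The feedback and transcription genes split. NEDD4L fell from 192 and 191 to 71.2 and 68.1 CPM (-1.46 ± 0.043, adjusted p = 5.37e-23), and HERC3 from 55.9 and 55.4 to 34.5 and 34.5 CPM (-0.69 ± 0.056, adjusted p = 6.62e-12). FKBP5 rose from 911 and 897 to 1241 and 1250.4 CPM (0.46 ± 0.033, adjusted p = 2.51e-13), and PMEPA1 from 652 and 632 to 717 and 719 CPM (0.16 ± 0.034, adjusted p = 0.000178). EAF2 and ELL2, whose proteins bind each other, parted: EAF2 fell from 30.6 and 30.6 to 9.20 and 10.4 CPM (-1.65 ± 0.085, adjusted p = 1.22e-16), and ELL2 rose from 386 and 396 to 415 and 417 CPM (0.09 ± 0.035, adjusted p = 0.0381). The ELL2 groups did not overlap, but the rise was small. CENPN rose from 205 and 208 to 228 and 236 CPM (0.17 ± 0.038, adjusted p = 0.000481), and MPHOSPH9 fell from 77.3 and 75.9 to 60.7 and 62.7 CPM (-0.31 ± 0.048, adjusted p = 2.05e-06). ZBTB10 was 659.8 and 692 against 699 and 729 CPM (0.08 ± 0.035, adjusted p = 0.0676) and passed without 0 h replicate 2 (0.11, adjusted p = 0.043) or without 24 h replicate 1 (0.11, adjusted p = 0.0245).

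Signalling genes gave 4 falls and 3 rises at 24 h. RAB3B fell from 47.7 and 46.8 to 17.7 and 16.8 CPM (-1.45 ± 0.068, adjusted p = 9.75e-18) and STK39 from 109 and 112 to 53.0 and 53.8 CPM (-1.05 ± 0.046, adjusted p = 2.5e-18). Both had risen with the hairpin. TPD52, a vesicle-trafficking protein, fell by 0.24 ± 0.037 (277 and 288 to 238 and 241 CPM, adjusted p = 2.71e-06) and C1orf116 by 0.28 ± 0.044 (141 and 133 to 116.2 and 109 CPM, adjusted p = 2.42e-06). HOMER2 rose from 73.8 and 70.9 to 92.6 and 91.6 CPM (0.35 ± 0.046, adjusted p = 1.33e-07), INPP4B from 61.4 and 58.1 to 69.4 and 69.4 CPM (0.22 ± 0.049, adjusted p = 0.000516) and AKAP12, a scaffold for protein kinase A, from 94.9 and 96.4 to 111 and 109.8 CPM (0.21 ± 0.042, adjusted p = 0.000146). The kinase CAMKK2 (0.02 ± 0.042, adjusted p = 0.732), the receptor inhibitor LRIG1 (0.01 ± 0.102, adjusted p = 0.975) and the scaffold IQGAP2 (0.38 ± 0.3, adjusted p = 0.321) did not pass. 3 calls of the 24 h comparison were lost when libraries were left out. ELL2 and ANKH lost theirs without any 1 of the 4 libraries (adjusted p from 0.061 to 0.291 and from 0.0739 to 0.166), and UAP1 without 0 h replicate 2 (0.273) or 24 h replicate 2 (0.283). DESeq2 called none of these 3 (0.0522 for ELL2, 0.174 for ANKH and 0.122 for UAP1).

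Between 1 h and 24 h, tested in a joint fit of the 6 degradation libraries that shares the libraries used above, 15 members fell and 12 rose among 35. Over 15623 features 55.1% were called, 25% higher and 30.1% lower. PTGER4 recovered, from 5.53 and 5.87 to 10.7 and 10.5 CPM (0.90 ± 0.115, adjusted p = 5.35e-09), and INPP4B, which had also fallen at 1 h, rose by 0.40 ± 0.049 (51.3 and 53.6 to 69.0 and 69.1 CPM, adjusted p = 1.88e-09). The large 24 h falls took place after the 1 h point: CHRNA2 (-2.72 ± 0.117, adjusted p = 7.88e-25), PLPP1 (-2.001 ± 0.039, 1.45e-38), SORD (-1.81 ± 0.052, 1.41e-31), EAF2 (-1.42 ± 0.083, 9.24e-20), RAB3B (-1.37 ± 0.065, 4.13e-23) and NEDD4L (-1.36 ± 0.039, 8.88e-32). C1orf116 was called lower at 1 h and did not pass from 1 h to 24 h (119 and 113 to 115.6 and 109 CPM, -0.04 ± 0.041, adjusted p = 0.413). DBI, called higher at 1 h, did not pass from 1 h to 24 h either (-0.03 ± 0.054, adjusted p = 0.732). A difference that does not pass does not show equal levels. MAK, called here alone among the degradation fits (1.80 and 1.45 to 2.57 and 2.22 CPM, 0.56 ± 0.233, adjusted p = 0.0466), lost the call without either library of 1 h or of 24 h (adjusted p from 0.0511 to 0.277), and CENPN lost its call without 1 h replicate 1 (0.114, adjusted p = 0.0562).

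**Figure D3:**
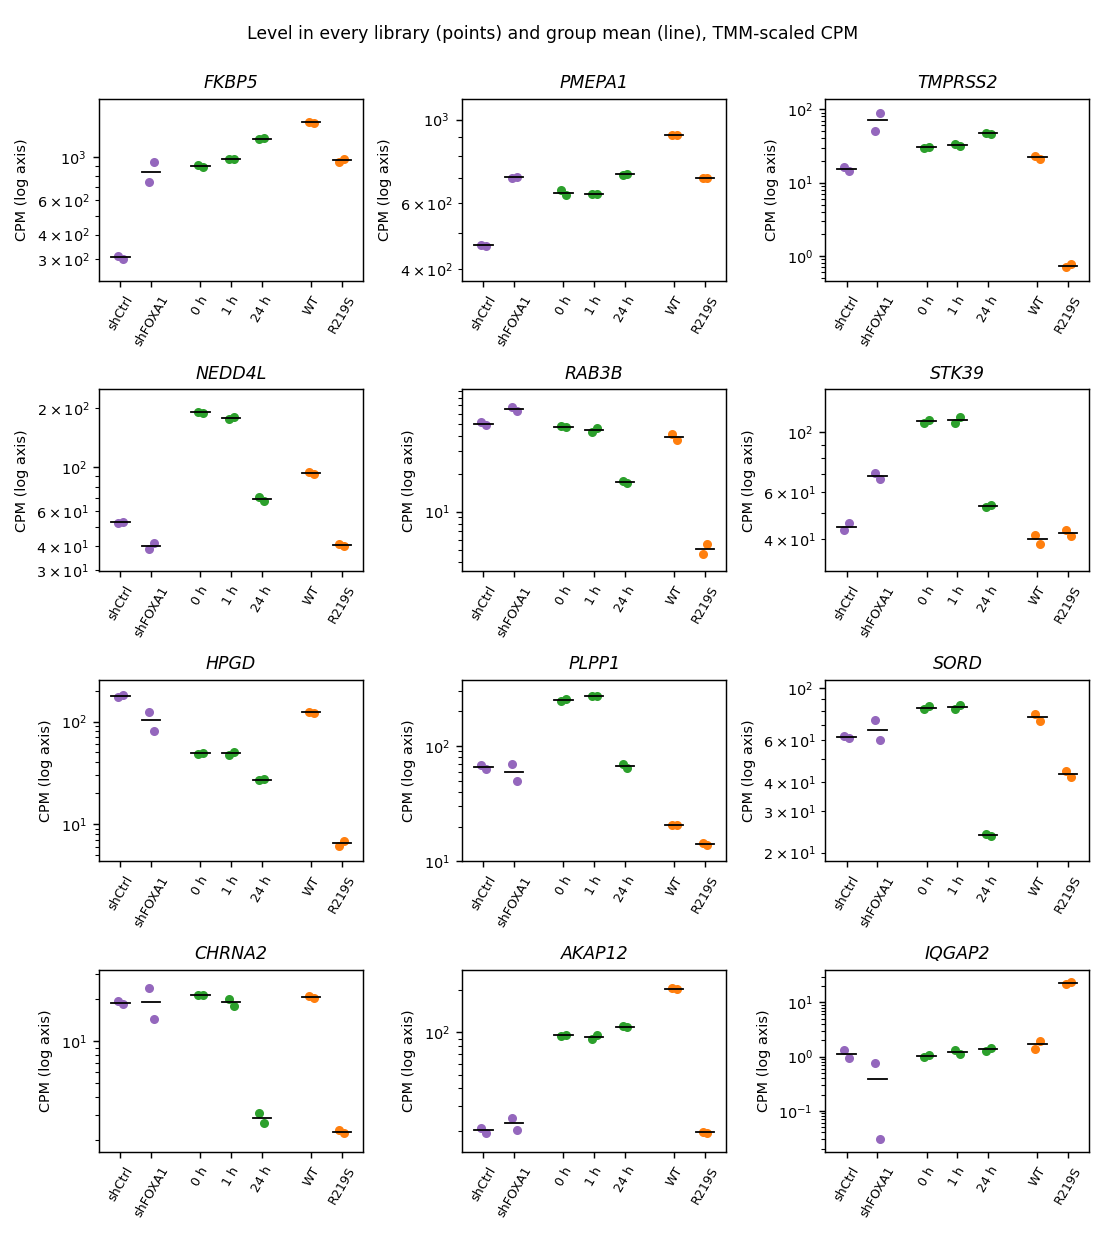
Level of 12 members in every library, as CPM on log axes scaled by TMM within the hairpin, degradation (6 libraries) and R219S experiments. Points are libraries, black lines are group means of 2, purple is the hairpin, green the degradation series and orange WT and R219S. Against the controls of the same experiment, NEDD4L is lower after each disturbance, by little at 1 h, where some refits lost the call. FKBP5 and PMEPA1 are above their controls with the hairpin and at 24 h and below them in R219S. TMPRSS2 lies likewise, but its hairpin rise did not pass the test.

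R219S cells differed from WT cells in 32 of 36 members, 25 lower and 7 higher. Among the deepest falls, TMPRSS2 stood at 0.0338 of its WT level, below 1 CPM in R219S, and HPGD at 0.0529. IQGAP2 was 14.0 times as high as in WT. Of 12836 features at 1 CPM or more, 64% were called, 31.9% higher and 32.2% lower, beside 88.9% of the members (19.4% higher, 69.4% lower). The members' median was -0.56, against 0.0064 over all features, and 9 falls and 1 rise were at least 2-fold.

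TMPRSS2 was 23.3 and 20.6 CPM in WT and 0.7005 and 0.778 CPM in R219S (-4.89 ± 0.16, adjusted p = 7.1e-129). The R219S values rest on 15 and 20 counts, and the mean of TMPRSS2 reached 1 CPM only through WT, the group where it is high. ACPP was 3.27 and 2.85 CPM in WT and 1.63 and 1.83 CPM in R219S (-0.83 ± 0.222, adjusted p = 0.000502). ADAM7 had 0 counts in all 4 libraries. HPGD fell from 124 and 122 to 6.16 and 6.81 CPM (-4.24 ± 0.071, adjusted p = 1.3e-272), and GNMT, which controls the methyl donor S-adenosylmethionine, from 5.52 and 4.47 to 1.73 and 1.60 CPM (-1.61 ± 0.198, adjusted p = 1.54e-14). UAP1 fell from 154 and 151 to 82.0 and 89.2 CPM (-0.83 ± 0.045, adjusted p = 1.25e-60). SORD (77.5 and 72.6 to 44.3 and 41.9 CPM, -0.81 ± 0.054, adjusted p = 9.21e-43) and PLPP1 (20.6 and 20.5 to 14.4 and 13.9 CPM, -0.54 ± 0.085, adjusted p = 1.62e-09) were lower by less than at 24 h of degradation. None of these enzymes had overlapping groups. DBI was the metabolic gene called higher, at 80.6 and 71.7 CPM in WT and 85.6 and 80.6 CPM in R219S (0.12 ± 0.048, adjusted p = 0.0261), with WT replicate 1 level with R219S replicate 2.

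Of the channels, transporters and receptors, 5 were called lower and 2 higher, and PTGER4 and KCNN2 were those higher. CHRNA2 fell from 21.0 and 20.4 to 2.33 and 2.22 CPM (-3.19 ± 0.128, adjusted p = 5.61e-97). STEAP4, a metalloreductase, was at low counts and fell from 1.97 and 1.76 to 0.187 and 0.623 CPM (-2.14 ± 0.358, adjusted p = 1.54e-08). Its mean reached 1 CPM only through WT, the group where it is high. STEAP4, like TMPRSS2, stands among the 25 falls and the 9 of at least 2-fold on that basis. SLC45A3 fell from 21.4 and 22.3 to 9.95 and 9.22 CPM (-1.19 ± 0.092, adjusted p = 1.91e-33), ABCC4 from 26.3 and 28.1 to 16.1 and 14.9 CPM (-0.81 ± 0.079, adjusted p = 9.51e-22) and LIFR from 85.6 and 92.8 to 57.3 and 61.8 CPM (-0.58 ± 0.050, adjusted p = 2.5e-27). LIFR had gone the other way at 24 h. KCNN2 rose from 3.22 and 3.34 to 5.18 and 4.09 CPM (0.49 ± 0.171, adjusted p = 0.00797) and PTGER4 from 15.8 and 14.8 to 19.1 and 16.3 CPM (0.20 ± 0.086, adjusted p = 0.037), where the R219S libraries lay further apart than the group means. Those calls, and that of DBI, were fragile: without R219S replicate 1, KCNN2 (adjusted p = 0.193), PTGER4 (0.467) and DBI (0.273) lost them and 4 members were higher. KCNN2 also lost its call without WT replicate 1 (0.0691), PTGER4 without WT replicate 1 (0.0525) or 2 (0.213), and DBI without WT replicate 2 (0.598). DESeq2 called none of the 3 (0.0984, 0.195 and 0.152).

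Among the feedback genes, 3 of 4 fell. FKBP5 went from 1519.7 and 1485 to 943 and 978 CPM (-0.65 ± 0.036, adjusted p = 2.6e-58), PMEPA1 from 911 and 912 to 699 and 698 CPM (-0.38 ± 0.036, adjusted p = 4.03e-23) and NEDD4L from 94.6 and 92.9 to 40.9 and 40.1 CPM (-1.21 ± 0.052, adjusted p = 1.99e-86). HERC3 did not pass (34.0 and 33.1 against 30.3 and 31.3 CPM, -0.12 ± 0.067, adjusted p = 0.0967). ELL2 fell from 280.2 and 279 to 234 and 248 CPM (-0.21 ± 0.039, adjusted p = 2.59e-07), ZBTB10 from 699.5 and 699 to 521 and 527 CPM (-0.42 ± 0.037, adjusted p = 9.72e-26) and MPHOSPH9 from 121 and 124 to 94.3 and 99.0 CPM (-0.34 ± 0.045, adjusted p = 6.23e-13). EAF2, the partner of ELL2, rose from 3.61 and 3.42 to 6.12 and 6.38 CPM (0.83 ± 0.153, adjusted p = 3.35e-07). CENPN rose from 48.7 and 50.005 to 57.1 and 56.1 CPM (0.20 ± 0.055, adjusted p = 0.000775). MAK was at 1.01 and 1.35 CPM in WT and 0.981 and 1.09 CPM in R219S, with overlapping groups.

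Signalling and scaffold genes gave 7 falls and 2 rises in R219S, and among them was the largest rise of any member. IQGAP2, a scaffold of the cytoskeleton, rose from 1.40 and 1.95 to 21.8 and 23.7 CPM (3.80 ± 0.129, adjusted p = 1.66e-122). AKAP12 fell from 206 and 202 to 19.7 and 19.4 CPM (-3.38 ± 0.055, adjusted p = 1.29e-280) and RAB3B from 41.1 and 36.8 to 4.62 and 5.49 CPM (-2.94 ± 0.094, adjusted p = 1.81e-132). LRIG1, a negative regulator of growth factor receptors, fell from 12.3 and 10.5 to 7.89 and 6.42 CPM (-0.69 ± 0.113, adjusted p = 5.25e-09). The falls of HOMER2 (71.9 and 72.5 to 47.3 and 45.7 CPM, -0.64 ± 0.053, adjusted p = 9.75e-29), TPD52 (325 and 316 to 208 and 213 CPM, -0.61 ± 0.039, adjusted p = 4.75e-45) and CAMKK2 (140.3 and 134 to 115 and 107 CPM, -0.31 ± 0.044, adjusted p = 1.86e-11) were moderate. INPP4B fell from 66.2 and 66.8 to 47.6 and 58.8 CPM (-0.31 ± 0.054, adjusted p = 4.87e-08), and DESeq2 did not call it (adjusted p = 0.0577). C1orf116 rose from 212 and 209.8 to 248 and 231 CPM (0.18 ± 0.040, adjusted p = 1.53e-05). STK39 (41.3 and 38.4 against 43.0 and 40.9 CPM, 0.07 ± 0.061, adjusted p = 0.331) and ANKH (-0.06 ± 0.055, adjusted p = 0.319) did not pass.

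Whether the 24 h change differed from the hairpin change was tested as an interaction over the 8 libraries of both experiments, which share no library. Among 33 members, the 24 h change was lower for 13 and higher for 2, against 17.5% lower and 12.6% higher among 14592 features (30.1% in either direction). The largest differences were in CHRNA2 (-2.90 ± 0.335, adjusted p = 0.000634), SORD (-1.89 ± 0.108, 1.92e-10), RAB3B (-1.83 ± 0.097, 2.49e-11), PLPP1 (-1.74 ± 0.227, 0.00492) and STK39 (-1.67 ± 0.082, 8.25e-12). RAB3B and STK39 rose with the hairpin and fell at 24 h, and CENPN fell and then rose (difference 0.43 ± 0.075, adjusted p = 0.00024). CHRNA2, SORD and PLPP1 fell at 24 h with hairpin values that did not pass. FKBP5 (-0.98 ± 0.133, adjusted p = 0.000844) and PMEPA1 (-0.43 ± 0.065, adjusted p = 4.2e-05) rose less at 24 h than with the hairpin, and NEDD4L fell further (-1.04 ± 0.078, adjusted p = 4.32e-09). TMPRSS2 differed by -1.55 ± 0.43 without passing (adjusted p = 0.078), and it passed without shFOXA1 replicate 1 (-1.90, adjusted p = 1.94e-30) or replicate 2 (-1.09, adjusted p = 7.65e-15). The calls of ELL2 (-0.86 ± 0.187, adjusted p = 0.0235) and PTGER4 (-1.02 ± 0.274, adjusted p = 0.0213) were lost without any 1 library other than those of shFOXA1 (adjusted p from 0.0719 to 0.0882 and from 0.0652 to 0.104). LIFR (0.59 ± 0.18, adjusted p = 0.0213) was lost without any 1 library other than shFOXA1 replicate 2 (from 0.0534 to 0.155). The count of members with a higher 24 h change was 1 in the fits without either shCtrl, 0 h or 24 h library and 4 without shFOXA1 replicate 1. Between the hairpin and 24 h calls, 9 members were shared, which is 90% of the 10 hairpin calls and 32.1% of the 28 calls at 24 h. Over all features, 4294 were called with the hairpin and 8639 at 24 h, and 2946 of those matched by symbol were called in both. Of the 9 members, 6 moved the same way (DBI, ELL2, FKBP5, HOMER2 and PMEPA1 higher, NEDD4L lower), beside 79.9% of the 2946 features.

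**Figure D4:**
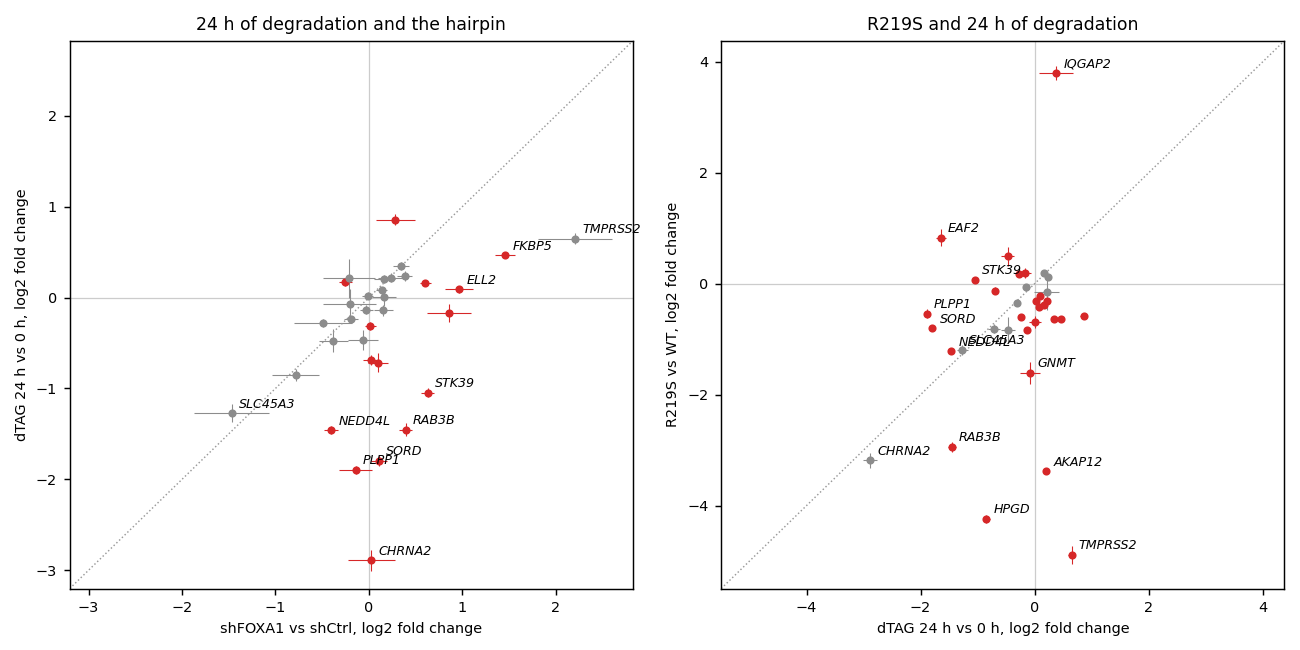
Log2 fold changes of the members set against each other, with standard errors as bars: 24 h against the hairpin (left) and R219S against 24 h (right). Members of 1 CPM or more in both comparisons are drawn, the dotted line marks equal change, and red points differ between the 2 changes at an adjusted p under 0.05. TMPRSS2, AKAP12 and IQGAP2 lie far from the line on the right, and CHRNA2, SORD and PLPP1 lie far below it on the left.

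The same test between R219S and 24 h of degradation joined the tables by symbol over 18713 features. The R219S change was lower for 16 of 35 members and higher for 10, against 29.1% lower and 32.4% higher among 12209 features (61.5% in either direction). TMPRSS2 differed by -5.56 ± 0.171 (adjusted p = 2.78e-41), since it rose at 24 h and fell in R219S. AKAP12 (-3.62 ± 0.069, adjusted p = 1.64e-54) and HPGD (-3.41 ± 0.099, adjusted p = 8.3e-43) came next, and IQGAP2 was the largest in the other direction (3.39 ± 0.318, adjusted p = 4.16e-15). Members that fell deeper at 24 h were PLPP1 (1.33 ± 0.090, 1.14e-21), SORD (0.97 ± 0.080, 1.67e-17) and NEDD4L (0.22 ± 0.067, 0.0035). CHRNA2 fell in both, and its difference did not pass (-0.32 ± 0.203, adjusted p = 0.177), nor did that of SLC45A3 (0.06 ± 0.137, adjusted p = 0.745). The call of PTGER4 (0.35 ± 0.135, adjusted p = 0.0246) was lost without WT replicate 2 (0.0804), R219S replicate 1 (0.172), 0 h replicate 1 (0.0812) or 24 h replicate 2 (0.0526). Between the 24 h and R219S calls, 25 members were shared, 89.3% of the first and 78.1% of the second. Over all features, 8639 were called at 24 h and 8217 in R219S, and 4934 of those matched by symbol were called in both. CENPN and DBI were higher in both, and ABCC4, ACPP, CHRNA2, HPGD, MPHOSPH9, NEDD4L, PLPP1, RAB3B, SLC45A3, SORD, TPD52 and UAP1 were lower in both. The other 11 were called in opposite directions: AKAP12, ELL2, FKBP5, HOMER2, INPP4B, LIFR, PMEPA1 and TMPRSS2 rose at 24 h and fell in R219S, and C1orf116, EAF2 and KCNN2 did the reverse. Over all features, 60.3% of the 4934 called in both moved the same way, beside 14 of the 25 members.

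Across the 4 comparisons, of which those at 1 h and 24 h share the 0 h libraries, 4 members were called in all: DBI, ELL2, FKBP5 and NEDD4L. NEDD4L was lower in each and DBI higher in each. However, the 1 h call of NEDD4L and the hairpin and R219S calls of DBI were lost in some of the refits given above. FKBP5 was higher in the hairpin, 1 h and 24 h comparisons and lower in R219S. ELL2 was higher with the hairpin and at 24 h, and lower at 1 h and in R219S. Its hairpin, 1 h and 24 h calls were each lost in some of the refits given above. A further 11 were called in 3 comparisons, 14 in 2, and 6 in 1, and ADAM7, MAK, OPRK1 and TRPM8 in 0. The same tally was not made over all features, so it is not read as a trait of the members. Of all features at 1 CPM or more, 28% were called with the hairpin, 24.1% at 1 h, 55.2% at 24 h and 64% in R219S. Between the hairpin and R219S calls, 9 members were shared (90% and 28.1%), of which DBI, PTGER4 and NEDD4L moved the same way and ELL2, FKBP5, HOMER2, PMEPA1, RAB3B and CENPN the opposite way. Over all features, 4294 were called with the hairpin and 8217 in R219S. Of those matched by symbol, 2645 were called in both, and 61.6% of these moved the same way.

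The counts below, of genes at 1 CPM or more in lists outside the members, stand beside shares over all features of 13.3% higher and 14.7% lower with the hairpin, 13.1% and 10.9% at 1 h, 25.8% and 29.3% at 24 h, and 31.9% and 32.2% in R219S. No list was tested against the members or against all features. Other androgen-responsive genes formed a list of 72 that excludes the members and includes the kallikreins. With the hairpin 16 of 69 were higher and 25 lower, with a median of -0.11. Its widest values were in the transcription factor MAF (2.75), the coactivator ZMIZ1 (2.14), the keratin KRT19 (1.64) and the stress-response gene NDRG1 (1.32). At 1 h 19 were higher and 15 lower of 69 (median -0.0012), with the kinase SGK1 at 1.78. At 24 h 17 were higher and 38 lower (median -0.24), with the ETS factor SPDEF at -4.32, MAF at -2.33 and the retinaldehyde dehydrogenase ALDH1A3 at 2.08. In R219S 30 of 72 were higher and 31 lower (median -0.055), with ALDH1A3 at 5.15, the guanylate cyclase subunit GUCY1A1 at 2.92 and the polyamine enzyme SAT1 at -2.92. FKBP5 and some other members also respond to the glucocorticoid receptor. Of 16 glucocorticoid-responsive genes outside the members, 7 of 15 were higher and 2 lower with the hairpin (median 0.48), 6 and 3 of 16 at 1 h (0.15), 13 and 2 at 24 h (0.55), and 5 and 8 in R219S (-0.21). Of 11 nuclear receptor and cofactor genes at 1 CPM or more, 6 were higher and 2 lower with the hairpin, 1 and 7 at 1 h, 8 and 1 at 24 h, and 3 and 6 in R219S. The targeted gene FOXA1 is in that list, among the lower genes with the hairpin and in R219S and the higher ones at 24 h. NR3C1, the glucocorticoid receptor, was called in all 4, at 0.34, -0.23, 0.29 and 0.58.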

How the data were processed

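The authors deposited raw read counts per gene, whole numbers with no normalization. Alignment and counting tools named in the submitters' processing notes are STAR and featureCounts, beside DESeq2 and the build hg19. Versions, annotation and strand setting are not given in the sources used here, so overlapping antisense transcripts cannot be separated. Groups came from the labels. Members and gene lists were chosen with earlier results of these data known. All 39 members matched by Ensembl ID or symbol (ACPP is now ACP3, and PLPP1 is PPAP2A in the R219S table). Dates had replaced 26 names in the R219S table, holding 0.172% to 0.186% of counts.

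Each comparison was fitted over all features on its own libraries with edgeR 4.0.16 (R 4.3.3): filterByExpr, TMM, estimateDisp, robust glmQLFit and the quasi-likelihood F test, with Benjamini-Hochberg adjustment and a threshold of 0.05. The degradation tables hold the same 0 h libraries (identical counts for 57905 features), so the 1 h and 24 h comparisons share controls, and 0 h CPM shift slightly between comparisons with TMM scaling. Standard errors are approximate: the size of the log2 fold change divided by the root of its F statistic. Named genes followed a rule: all members by role, the 10 largest called changes per direction with every library, members called in 3 or 4 comparisons or in opposite directions, and at most 4 genes per other list. Some results the rule would name outside the members are not reported here. Alternatives were DESeq2 1.42.0, RLE normalization, other filters and floors (0.5 and 5 CPM), a replicate block, leaving out each library, and a GC content and length correction. The fits were tested on simulated data. Replicate numbers did not pair libraries: correlations of same-numbered deviations ran from -0.016 to 0.034.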

Additional observations from a re-analysis of the deposited data

Results flagged for a closer look

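Differences between experiments that passed a test of the difference itself are listed here as values. They are log2 differences from the interaction fits (edgeR, adjusted p under 0.05), and no explanation is given for any of them.

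The 24 h change was lower than the hairpin change in CHRNA2 by a log2 difference of -2.90, in SORD by -1.89, in RAB3B by -1.83, in PLPP1 by -1.74 and in STK39 by -1.67. Smaller differences of the same sign were found in NEDD4L (-1.04), PTGER4 (-1.02), FKBP5 (-0.98), ELL2 (-0.86), ABCC4 (-0.80), HERC3 (-0.70), PMEPA1 (-0.43) and MPHOSPH9 (-0.32). The 24 h change was the higher one in CENPN (0.43) and LIFR (0.59).

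The R219S change was lower than the 24 h change in TMPRSS2 (-5.56), AKAP12 (-3.62), HPGD (-3.41), GNMT (-1.55), RAB3B (-1.51), LIFR (-1.46), FKBP5 (-1.13) and HOMER2 (-1.01). It was also lower, by less than 2-fold, in LRIG1 (-0.72), UAP1 (-0.72), PMEPA1 (-0.57), INPP4B (-0.55), ZBTB10 (-0.52), TPD52 (-0.39), CAMKK2 (-0.36) and ELL2 (-0.33). The R219S change was higher in IQGAP2 (3.39), EAF2 (2.45), PLPP1 (1.33), STK39 (1.09), SORD (0.97), KCNN2 (0.94), HERC3 (0.54), C1orf116 (0.44), PTGER4 (0.35) and NEDD4L (0.22).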

How the results depend on the processing

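Of 2772 refitted gene values, 2618 kept their side of the threshold, 102 lost a call and 48 gained one. The 2618 include any value called in neither fit whose sign changed. The other 4 changed sign and were called in the main fit or in the refit. Those 4 were CHRNA2 with the hairpin without shFOXA1 replicate 1 (-0.38, against 0.34 without replicate 2), HPGD in the difference between 24 h and hairpin changes without shFOXA1 replicate 1 (0.27, against -0.33 without replicate 2), and NEDD4L (0.014) and ZBTB10 (0.049) at 1 h with the GC content and length correction, an alternative chosen after seeing the data. DESeq2 gave 4 members lower with the hairpin, 5 lower at 1 h and 4 higher in R219S. The GC content and length correction gave 5 lower at 1 h. Counting only members of 5 CPM or more left 1 with a higher 24 h than hairpin change. The cause of these shifts was not tested.

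Leaving out 1 library at a time gave 4 to 13 members higher and 1 to 8 lower with the hairpin, 2 to 3 and 4 to 9 at 1 h, 9 to 10 and 16 to 17 at 24 h, 4 to 7 and 24 to 25 in R219S, and 10 to 12 and 15 to 16 from 1 h to 24 h. The 24 h change was above the hairpin change in 1 to 4 members and below it in 11 to 15, and the R219S change above the 24 h change in 9 to 10 and below it in 16 to 17.

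With the replicate block, members higher and lower were 8 and 3 with the hairpin, 3 and 10 at 1 h, 11 and 18 at 24 h, and 7 and 25 in R219S. HPGD passed with the hairpin (-0.81, adjusted p = 0.0479) and ZBTB10 at 24 h (0.08, adjusted p = 0.00429), and the block changed no other call.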
